A study of Homo sapiens with 12 samples.

Results

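The difference of the UV response between 2 lines of SW13 cells was examined across 13818 genes. SW13 is a human adrenal cortical carcinoma cell line that lacks the BRG1 protein. The stable line SW13+vector carried the empty plasmid pREP7, and the stable line SW13+BRG1 carried pREP7 with BRG1 (SW13+pREP7+BRG1). Cells of each line were irradiated with UV at 10 J/m2 or mock treated and were collected after 6 h, which gave 4 groups of 3 Affymetrix arrays. All 12 of the 12 arrays of the series were used. For each gene the log2 signal of the mock-treated cells was subtracted from that of the UV-treated cells in each line, and the value for SW13+vector was then subtracted from that for SW13+BRG1. This difference, called the interaction, is positive where UV moved a transcript further upward, or less far downward, in SW13+BRG1. The methods name 1 stable line of each kind, so BRG1 and any other difference between these lines cannot be told apart. The arrays of a group were described as independent biological samples of the same line, and p values measure the spread among them.

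UV light joins neighbouring pyrimidines in DNA, which stalls RNA polymerase on the transcribed strand and activates stress kinases. Within hours cells induce early response genes, whose short-lived transcripts encode transcription factors such as JUN and ATF3 and feedback regulators. BRG1, encoded by *SMARCA4*, is the ATPase of SWI/SNF complexes, which use ATP to move or evict nucleosomes at promoters and enhancers.

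The transcript of *SMARCA4* itself was measured by 9 probe sets. The mean signal was higher in SW13+BRG1 on 2 of the 9 in mock-treated cells and on 3 after UV. The brightest read 539 ± 332 (SD, n = 3 arrays) in mock-treated SW13+vector and 213 ± 107 in mock-treated SW13+BRG1 (log2 difference -1.28, adjusted p = 0.0459), so it was lower in the line labelled with BRG1. A dimmer probe set read 34.4 in UV-treated SW13+vector and 148.1 in UV-treated SW13+BRG1 (log2 difference 2.20, adjusted p = 0.0028). The authors detected BRG1 protein in SW13+BRG1 cells by Western blotting, which is outside the values used here. The positions of these probe sets on the plasmid's BRG1 insert are not given in the sources used here, and the names SW13+vector and SW13+BRG1 below stand for the lines so labelled. Array medians were 21.1 to 25.3, and log2 signals of the tested genes correlated at 0.927 to 0.960 within groups (12 pairs of arrays) and 0.789 to 0.935 between groups (54 pairs). Of 10 adrenal cortex markers on the array, FDX1 and SCARB1 were at or above the array median on all 12 arrays and STAR, CYP11B2 and HSD3B2 on none. Summed epithelial markers, mostly *KRT18*, were 284 and 307 in SW13+vector (mock and UV) against 3939 and 5157 in SW13+BRG1. *CDH1*, *KRT19* and *ESRP1* of that list were at or above the array median on no array. Summed mesenchymal markers were 1923 and 1858 against 11190.4 and 13664. *VIM* (288 and 369 against 7952 and 10483) and *CDH2* (14.3 and 12.7 against 1374 and 1466) made most of that gap. *COL3A1* went the other way, with 1467 and 1273 against 1327 and 1086. Blood cell markers summed to 202 and 216 against 71.0 and 106, with *PTPRC* at 123 and 118 against 7.07 and 6.77. Endothelial markers summed to 121 and 128 against 82.3 and 83.9. No marker of these 5 lists passed the interaction test (limma, 0 of 18 tested at an unadjusted p under 0.05 as well, and 0 with the experiment as a block).

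The interaction passed an adjusted p of 0.05 in 14 genes, which is 0.101% of the 13818 tested. It was positive in 4 genes (0.0289%), *ATF3*, *MAFF*, *NFKBIZ* and *SPRY2*, and negative in 10 (0.0724%), *JUN*, *IER3*, *PNRC1*, *LIN28B*, *HMGA2*, *SPDL1*, *FBXO5*, *COIL*, *MAT2A* and *WTAP*. At an unadjusted p under 0.05 there were 788 genes (5.7%), 252 positive and 536 negative. The labels number the arrays of each group by experiment, 1 to 3. With the experiment as a block common to the 4 groups, 91 genes passed (0.659%), 19 positive (0.138%) and 72 negative (0.521%), and these included all 14. Over single probe sets 16 of 32622 passed (0.049%), and 69 with the block (0.212%). These 16 included sets of *CD44* (interaction 3.38, limma adjusted p = 0.0029) and *RBMS1* (-1.65, limma adjusted p = 0.0139), neither the brightest of its gene. That *CD44* probe set had UV differences of -2.96 in SW13+vector and 0.41 in SW13+BRG1, against 0.65 and 0.35 for the brightest. The others outside the 14 genes had no single gene. The lines themselves differed in 2023 genes in mock-treated cells (14.6%) and in 2315 after UV (16.8%). The median standard error of the interaction over genes was 0.38 on the log2 scale, and 0.28 with the block. With the 4 arrays of experiment 3 left out, 155 genes passed, including all 14 and 75 of the 91. Signals of a whole culture were measured, so fewer cells with a transcript and less transcript per cell cannot be told apart.

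**Figure D1:**
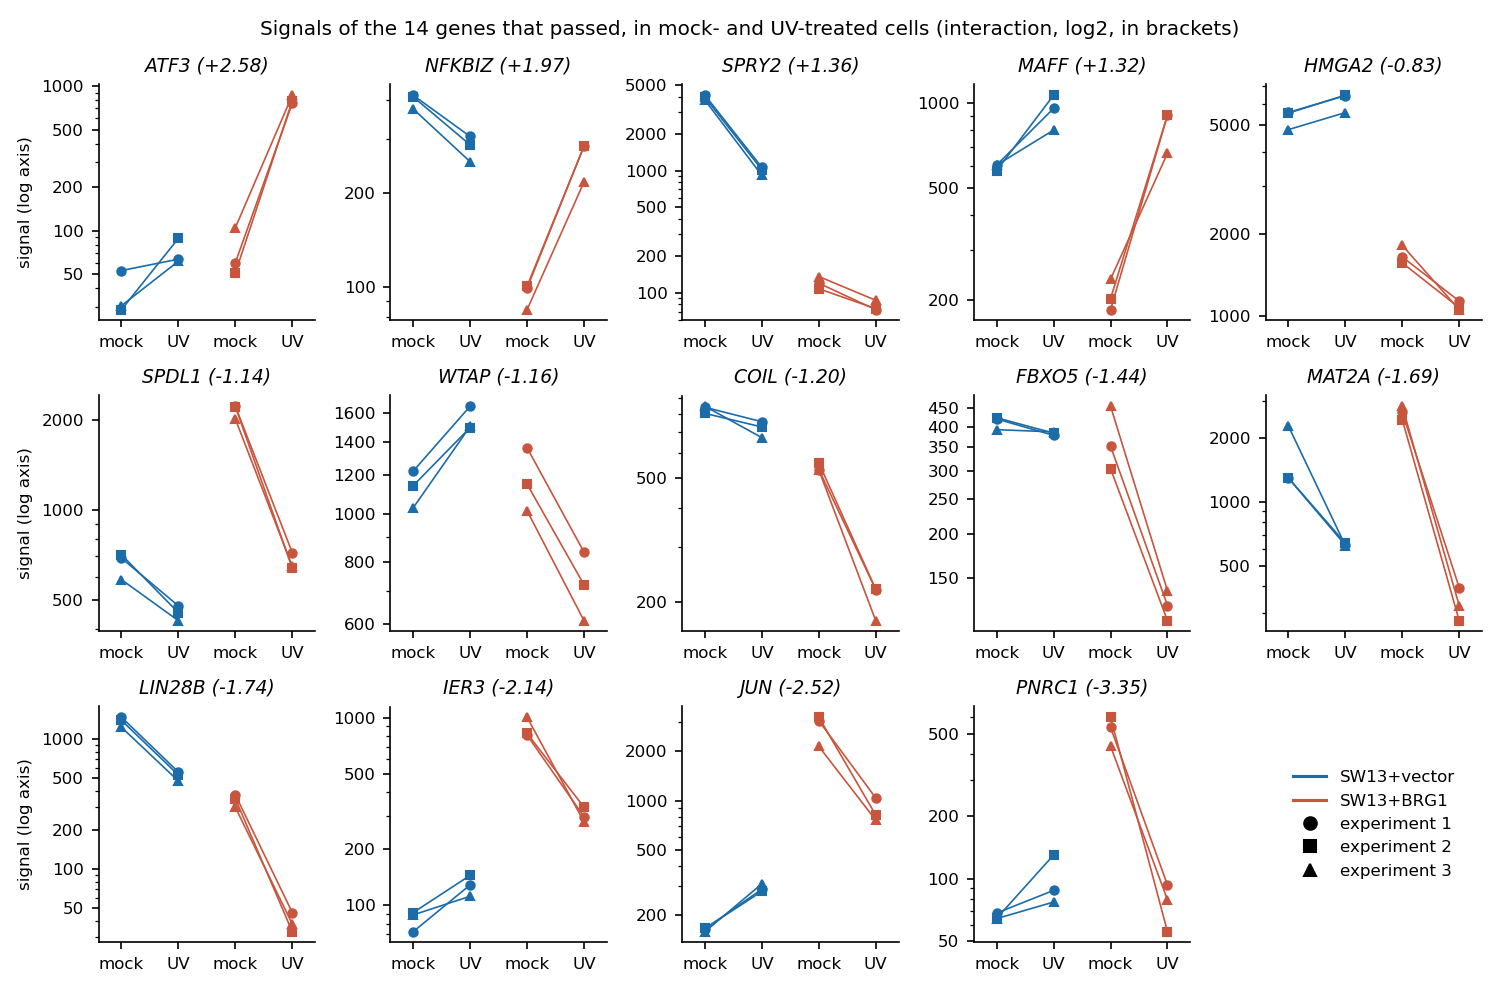
Signal on each of the 12 arrays (log axis) for the 14 genes that passed, mock and UV in SW13+vector (blue) and SW13+BRG1 (red), with lines that join arrays of the same experiment number and the interaction in brackets. Blue and red lines run at different slopes in every panel. *JUN* climbs on the blue lines and drops on the red ones, and *ATF3* is high on the 3 arrays of UV-treated SW13+BRG1 alone.

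*JUN*, *ATF3*, *MAFF* and *NFKBIZ* are shown by their promoters, since they encode factors of the early response and the interaction of *JUN* had the opposite sign to that of the others. Each sequence is the 250 bases before a transcription start in RefSeq annotation of GRCh38.p14, written 5′ to 3′ on the strand of the gene. Capitals mark a match to TGACGTCA or TGACATCA, forms of the cAMP response element bound by ATF and JUN dimers, or to the 10-base site bound by NF-κB. *ATF3*, *MAFF* and *NFKBIZ* have 2 windows each in that annotation, of which the first listed is printed. Which start these cells use, with or without UV, was not measured. The *JUN* window lies on chr1:58784048-58784297 (minus strand), the *ATF3* window on chr1:212565157-212565406 (plus strand), the *MAFF* window on chr22:38201744-38201993 (plus strand) and the *NFKBIZ* window on chr3:101827740-101827989 (plus strand).
JUN: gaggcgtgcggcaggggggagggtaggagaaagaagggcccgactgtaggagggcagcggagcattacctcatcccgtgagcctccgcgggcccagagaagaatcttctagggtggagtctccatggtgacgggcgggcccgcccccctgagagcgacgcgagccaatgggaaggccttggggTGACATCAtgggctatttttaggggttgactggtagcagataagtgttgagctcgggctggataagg
ATF3: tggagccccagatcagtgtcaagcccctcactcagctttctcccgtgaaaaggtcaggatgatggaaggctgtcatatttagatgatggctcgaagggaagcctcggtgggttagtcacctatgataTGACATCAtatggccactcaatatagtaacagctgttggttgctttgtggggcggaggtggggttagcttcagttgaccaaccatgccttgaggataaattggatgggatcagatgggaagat
MAFF: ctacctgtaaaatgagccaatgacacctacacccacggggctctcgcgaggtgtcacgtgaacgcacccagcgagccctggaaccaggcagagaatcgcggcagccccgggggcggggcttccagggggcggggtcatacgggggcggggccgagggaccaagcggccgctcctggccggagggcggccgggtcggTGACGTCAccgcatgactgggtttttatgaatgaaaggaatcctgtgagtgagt
NFKBIZ: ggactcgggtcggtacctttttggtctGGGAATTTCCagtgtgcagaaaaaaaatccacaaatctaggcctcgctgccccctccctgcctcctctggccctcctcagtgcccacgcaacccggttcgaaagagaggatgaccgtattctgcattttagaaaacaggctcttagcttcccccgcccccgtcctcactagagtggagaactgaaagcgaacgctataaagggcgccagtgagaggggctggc
*JUN* and *ATF3* share TGACATCA, at positions -67 to -60 and -123 to -116 from the start. *MAFF* has TGACGTCA at -54 to -47, and *NFKBIZ* has an NF-κB site at -223 to -214. Of the second windows, not printed, that of *ATF3* had no match, and those of *MAFF* (-102 to -93) and *NFKBIZ* (-239 to -230) each had an NF-κB site. Over 35116 RefSeq promoter windows of this kind, read on both strands, TGACATCA occurred in 2.37%, TGACGTCA in 1.65%, TGANTCA (the AP-1 site) in 6.57%, the NF-κB site in 5.21% and the CArG box of serum response factor in 1.16%. Of the 14 genes 12 had a window, and 8 of their 21 windows held a match to any of these. The share of all windows with a match to any of them was not counted, so whether 8 of 21 is more than usual cannot be told. *JUN* and *ATF3*, whose interactions had opposite signs, carry the same 8 letters, and no 2 matches in the 4 printed windows overlap. A match describes letters and not binding.

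Among the positive genes *ATF3*, which encodes a stress-induced member of the ATF/CREB family, had the largest interaction. Its signals in experiments 1, 2 and 3 were 53.1, 28.5 and 30.4 in mock-treated and 63.7, 88.7 and 61.7 in UV-treated SW13+vector. In SW13+BRG1 they were 60.2, 51.2 and 105 in mock-treated and 761, 791 and 864 in UV-treated cells. The 3 arrays of UV-treated SW13+BRG1 stood far above the other 9, of which the highest was the mock-treated SW13+BRG1 array of experiment 3. *ATF3* rose in SW13+BRG1 by 3.55 on the log2 scale, against a difference of 0.97 in SW13+vector. The interaction was 2.58 (standard error 0.42, 95% interval 1.66 to 3.49, adjusted p = 0.0463). The other 2 tested probe sets of *ATF3* were dimmer, with interactions of 0.84 and 0.86.

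*MAFF* encodes a small MAF protein, a basic leucine zipper factor without an activation domain of its own. Its signals were 603, 577 and 603 before and 958, 1067 and 803 after UV in SW13+vector, and 185, 202 and 237 before and 907, 905 and 664 after UV in SW13+BRG1. The mock-treated SW13+BRG1 cells were lowest, without overlap with any other group, while UV-treated cells of both lines overlapped. *MAFF* rose in SW13+BRG1 (log2 1.98), the UV difference was 0.66 in SW13+vector, and the interaction was 1.32 (standard error 0.22, 95% interval 0.85 to 1.80, adjusted p = 0.0463). The difference between the lines went from -1.52 in mock-treated cells to -0.20 after UV on the log2 scale. A second, dimmer probe set had an interaction of 0.29.

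*NFKBIZ* encodes IκBζ, a nuclear cofactor of NF-κB. Signals were 415, 410.3 and 375 in mock-treated and 306, 287 and 253 in UV-treated SW13+vector, and 98.9, 100.4 and 84.3 in mock-treated and 284, 284 and 218 in UV-treated SW13+BRG1. Every UV array was below every mock array in SW13+vector and above every mock array in SW13+BRG1. The UV difference was -0.51 in SW13+vector, and *NFKBIZ* rose by 1.46 in SW13+BRG1 on the log2 scale. The interaction was 1.97 (standard error 0.22, 95% interval 1.497 to 2.449, adjusted p = 0.00243), with 1.97, 2.02 and 1.94 in the 3 experiments. As for *MAFF*, the line difference of -2.08 in mock-treated cells stood at -0.11 after UV, and its second probe set had an interaction of 1.54.

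*SPRY2*, a feedback inhibitor of receptor tyrosine kinase and ERK signalling, was positive with a less negative UV difference in SW13+BRG1. Signals fell from 4144, 3983 and 3782 to 1064, 1017 and 913 in SW13+vector (log2 -1.99). They were 119, 107 and 136 in mock-treated and 72.5, 73.9 and 86.5 in UV-treated SW13+BRG1 (log2 -0.64). The 2 lines did not overlap in either condition, and SW13+BRG1 was lower throughout, with log2 differences between the lines of -5.04 before and -3.69 after UV. The interaction was 1.36 (standard error 0.18, 95% interval 0.96 to 1.75, adjusted p = 0.012). On a linear scale the drop in mean signal was far larger in SW13+vector, 3969.7 ± 182 to 998 ± 77.0, than in SW13+BRG1, 121 ± 14.1 to 77.6 ± 7.71.

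*JUN*, *IER3* and *PNRC1* shared a second pattern, a high signal in mock-treated SW13+BRG1 that fell after UV and a low signal in SW13+vector that did not fall. *JUN*, a subunit of AP-1, had signals of 165, 167 and 159 in mock-treated and 289, 280.1 and 311 in UV-treated SW13+vector. In SW13+BRG1 it had 3075, 3231 and 2143 in mock-treated and 1040.3, 818 and 762 in UV-treated cells. The 4 groups did not overlap, and the UV arrays lay above mock in SW13+vector and below mock in SW13+BRG1. The interaction was -2.52 (standard error 0.23, 95% interval -3.02 to -2.03, adjusted p = 0.000912), from UV differences of 0.84 and -1.68. After UV *JUN* was still higher in SW13+BRG1 by 1.56, against 4.08 before. All 4 tested probe sets of *JUN* had a negative interaction, -4.10 to -2.16.

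*IER3* is an immediate early gene that acts on survival of stressed cells. Its signals were 72.4, 91.5 and 88.9 and, after UV, 128, 144 and 112 in SW13+vector. They fell from 808, 825 and 1006 to 296, 333 and 279 in SW13+BRG1. No group overlapped another, as for *JUN*. The UV differences were 0.61 and -1.54, and the interaction was -2.14 (standard error 0.23, 95% interval -2.64 to -1.64, adjusted p = 0.00211).

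*PNRC1*, which encodes a cofactor of nuclear receptors that also binds the mRNA decapping machinery, had the most negative interaction of the genes that passed. Signals were 68.5, 64.6 and 64.4 in mock-treated and 88.1, 130.4 and 77.4 in UV-treated SW13+vector. They fell from 538, 602 and 437 to 93.5, 55.7 and 79.3 in SW13+BRG1. Mock-treated SW13+BRG1 stood apart from the other 3 groups, and the UV-treated groups overlapped. The interaction of -3.35 (standard error 0.34, 95% interval -4.09 to -2.61, adjusted p = 0.00183) is a 10.2-fold difference between the folds of the lines. The experiments gave -2.89, -4.45 and -2.73.

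*IER5*, another early gene, had means in the same order as *JUN* and *IER3*. They were 200.5 ± 22.2 and 346 ± 22.8 in SW13+vector against 864 ± 194 and 611 ± 13.9 in SW13+BRG1 (mock and UV). The UV differences of *IER5* were 0.79 and -0.48, neither over 2-fold, so it was not called as a fall in SW13+BRG1. Its interaction of -1.27 passed with the block (adjusted p = 0.0575, 0.00541 with the block, 0.0013 to 0.78 over the alternatives).

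*LIN28B* and *HMGA2*, both of embryonic cells and tumours, were higher in SW13+vector, and the gap between the lines was larger after UV. *LIN28B*, an inhibitor of let-7 microRNA maturation, fell from 1479, 1398 and 1238 to 559, 531 and 477 in SW13+vector. It fell from 373, 349 and 299 to 46.2, 32.9 and 37.7 in SW13+BRG1. No groups overlapped, and the UV-treated SW13+BRG1 arrays were the lowest. The falls of 2.63-fold and 8.79-fold differed by an interaction of -1.74 (standard error 0.22, 95% interval -2.22 to -1.27, adjusted p = 0.0078).

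*HMGA2*, an architectural chromatin protein and a known let-7 target, had signals of 5579, 5549 and 4824 before and 6434, 6455 and 5572 after UV in SW13+vector. In SW13+BRG1 they were 1641, 1561 and 1810.3 before and 1130.0, 1068 and 1050.4 after UV. Mock and UV overlapped in SW13+vector and did not in SW13+BRG1. The UV differences were 0.21 and -0.62, under 2-fold in each line, and the interaction of -0.83 was the smallest in size of those that passed (standard error 0.14, 95% interval -1.13 to -0.54, adjusted p = 0.0463). It had 7 tested probe sets, of which 6 gave a negative interaction, 2 of them at an unadjusted p under 0.05.

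*IGF2BP3*, another oncofetal mRNA-binding protein, had means of 1462 ± 179 and 1119 ± 244 in SW13+vector and fell from 660.5 ± 195 to 157 ± 13.1 in SW13+BRG1. Its interaction of -1.62 passed with the block (adjusted p = 0.117, 0.000452 with the block, 1.29e-05 to 0.821 over the alternatives). All 4 probe sets tested for it gave a negative interaction.

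The other 5 genes act in division, nuclear bodies and RNA or methionine metabolism, and had in common a more negative UV difference in SW13+BRG1. *SPDL1*, which brings dynein to kinetochores, had signals of 691, 709.7 and 586 in mock-treated and 479, 454 and 427 in UV-treated SW13+vector. It fell from 2225, 2219 and 2016 to 721, 639 and 649 in SW13+BRG1. The mock-treated SW13+BRG1 arrays were the highest, and UV-treated SW13+BRG1 overlapped mock-treated SW13+vector. The interaction was -1.14 (standard error 0.16, 95% interval -1.48 to -0.81, adjusted p = 0.012), with -1.10, -1.15 and -1.18 by experiment.

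*FBXO5* encodes EMI1, an inhibitor of the anaphase-promoting complex. Its signals were 420.3, 424 and 392 in mock-treated and 378, 383 and 387 in UV-treated SW13+vector. They fell from 352, 305 and 456 to 126, 114 and 138 in SW13+BRG1. UV-treated SW13+BRG1 lay below the other 9 arrays. The interaction was -1.44 (standard error 0.22, 95% interval -1.91 to -0.96, adjusted p = 0.0302), and its second probe set had an interaction of -1.85.

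*COIL* encodes coilin, the scaffold of Cajal bodies. Its signals were 842, 805 and 849 and, after UV, 757, 728 and 673 in SW13+vector. They fell from 532, 559 and 531 to 219.9, 220.5 and 175 in SW13+BRG1. As for *FBXO5*, the arrays of UV-treated SW13+BRG1 were the lowest and apart from the rest. The interaction was -1.20 (standard error 0.17, 95% interval -1.56 to -0.83, adjusted p = 0.0155).

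*MAT2A*, which makes S-adenosylmethionine, fell in both lines. Signals went from 1295, 1295 and 2279 to 624, 638 and 621 in SW13+vector and from 2647, 2439.9 and 2825 to 393, 275 and 323 in SW13+BRG1. The mock-treated SW13+vector array of experiment 3 stood well above the other 2 of its group. The interaction was -1.69 (standard error 0.28, 95% interval -2.29 to -1.10, adjusted p = 0.0463), and -1.96 without that array. A second probe set of *MAT2A* had an interaction of -0.0046 and no called UV difference.

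*WTAP*, a subunit of the m6A methyltransferase complex, had signals of 1222, 1141 and 1029.7 in mock-treated and 1653, 1497 and 1505 in UV-treated SW13+vector. In SW13+BRG1 they were 1362, 1149.7 and 1016 in mock-treated and 837, 719 and 608 in UV-treated cells. The mock-treated groups overlapped, and after UV the lines lay on opposite sides of them. Neither UV difference was over 2-fold (0.46 and -0.71), and the interaction was -1.16 (standard error 0.20, 95% interval -1.59 to -0.74, adjusted p = 0.0493). Among 7 probe sets tested for *WTAP*, 6 gave a negative interaction and 1 gave 0.11.

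The calls of *JUN*, *PNRC1*, *IER3*, *NFKBIZ* and *LIN28B* held whichever of the 12 arrays was left out. *SPRY2* lost its call without mock-treated SW13+vector array 1 or 2, UV-treated SW13+vector array 2 or mock-treated SW13+BRG1 array 1, with interactions of 1.28 to 1.44 over the 12 fits. *SPDL1* lost it without UV-treated SW13+vector array 1 or 2, mock-treated SW13+BRG1 array 1 or 2, or UV-treated SW13+BRG1 array 2 (-1.20 to -1.06). *COIL* lost it without array 1 or 2 of mock-treated SW13+vector, UV-treated SW13+vector or mock-treated SW13+BRG1 (-1.25 to -1.08). The other 6 kept their calls in 1 to 3 of the 12 fits. *FBXO5* passed without mock-treated SW13+BRG1 array 2 or 3 or UV-treated SW13+BRG1 array 3 (-1.57 to -1.28), and *ATF3* without mock-treated SW13+BRG1 array 3 (2.29 to 2.88). *MAFF* passed without array 3 of mock- or UV-treated SW13+BRG1 (1.21 to 1.47), and *HMGA2* without UV-treated SW13+vector array 3 (-0.90 to -0.77). *MAT2A* passed without mock-treated SW13+vector array 3 or UV-treated SW13+BRG1 array 1 (-1.96 to -1.56), and *WTAP* without mock-treated SW13+BRG1 array 3 or UV-treated SW13+BRG1 array 1 (-1.28 to -1.05). No interaction changed sign in these fits. With p adjusted over probe sets in place of genes, no probe set of *ATF3*, *MAFF*, *HMGA2*, *MAT2A* or *WTAP* passed, with 0.0696 to 0.0797 for their brightest ones, and the other 9 genes had at least 1 that did.

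**Figure D2:**
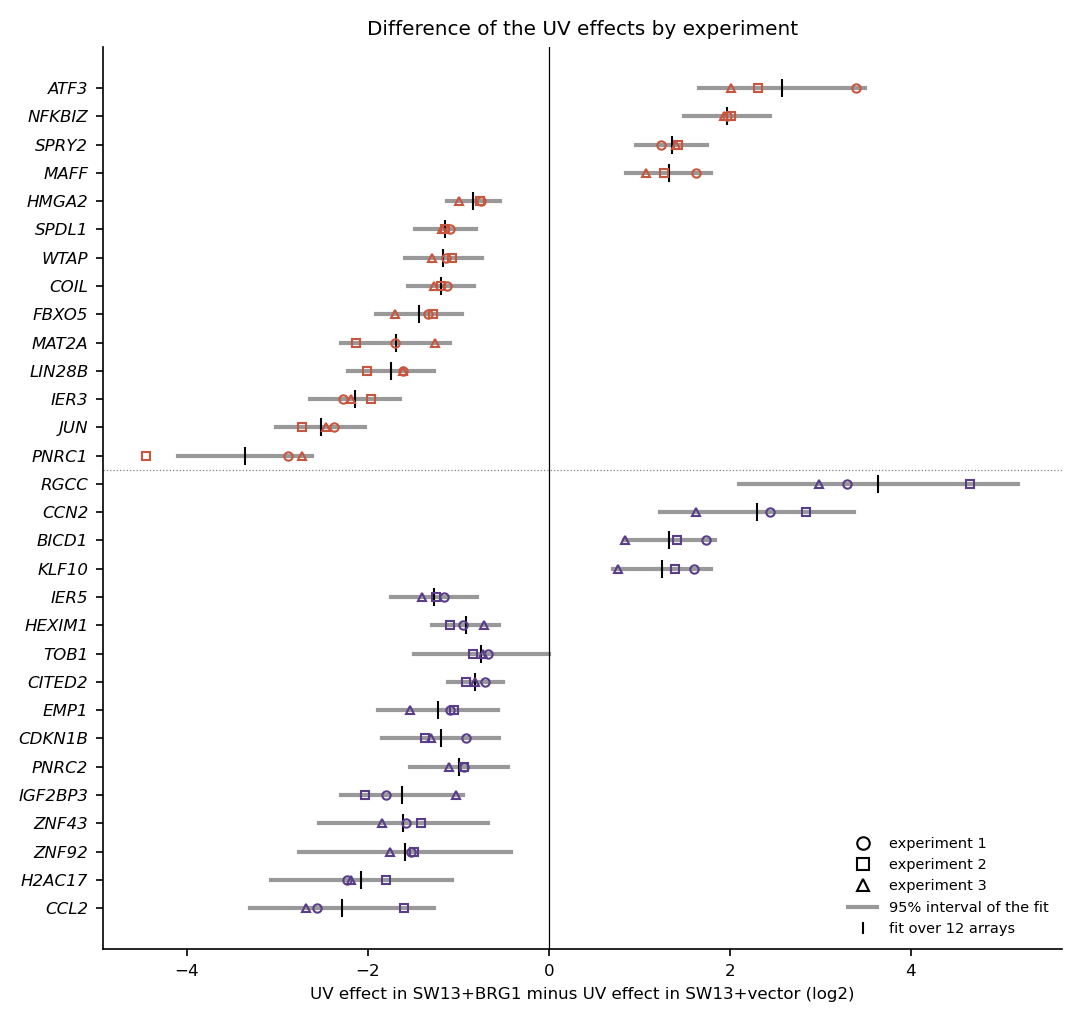
Difference of the UV effects (log2) of the 14 genes that passed (red) and of 16 genes that passed with the experiment block alone (purple). Symbols are the 3 experiments, ticks the value over all 12 arrays and grey bars its 95% interval without the block. The 3 symbols of a gene lie on one side of 0 in all 30 rows, and *PNRC1* spreads most among the red ones, from -4.45 to -2.73.

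In the 14 genes, and in the 91 that passed with the block, the 3 experiments gave differences of one sign, as they did in 36.3% of all tested genes. The 3 UV effects of one line did not overlap those of the other in any of the 91, against 19.0% of all tested genes without such overlap. The genes were picked by fits to these same values, so both comparisons are a description and not a replication. The labels number the experiments and do not say whether a number is shared by the 4 groups. With the number as a block, standard errors were smaller and more genes passed. Some of these genes, with known roles in RNA polymerase, growth factor and cell cycle control, are given next.

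*CCN2*, a secreted matricellular protein and target of YAP and TGF-β, had bright signals in SW13+vector. They were 7493, 7397 and 8918 in mock-treated and 2895, 2807 and 3352 in UV-treated SW13+vector, where *CCN2* fell. In SW13+BRG1 they were 425, 363 and 1257 in mock-treated and 892, 988 and 1458 in UV-treated cells. In each experiment UV-treated cells lay below mock in SW13+vector and above mock in SW13+BRG1, and the mock and UV arrays of SW13+BRG1 overlapped. The interaction was 2.30 (adjusted p = 0.195, 0.00457 with the block, 1.59e-06 to 1 over the alternatives). *CCN1*, the related early gene, went the other way, with means of 811 ± 77.1 and 484 ± 44.0 in SW13+vector against a fall from 2198 ± 753 to 641 ± 109.9 in SW13+BRG1. Its interaction was -0.995 (adjusted p = 0.448, 0.0105 with the block, 0.00145 to 1 over the alternatives).

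*KLF10*, a TGF-β-inducible zinc finger factor, had means of 1152 ± 138 and 924 ± 66.4 in SW13+vector and 433 ± 102 and 828 ± 163 in SW13+BRG1, mock and UV. Its interaction was 1.25 (adjusted p = 0.146, 0.0271 with the block, 0.000872 to 0.75 over the alternatives). *MAP3K5*, the stress kinase ASK1, fell in SW13+vector from 169.6 ± 18.2 to 47.2 ± 1.17 and had 118 ± 24.4 and 81.2 ± 5.10 in SW13+BRG1. Its interaction of 1.32 passed under no alternative but the block (adjusted p = 0.188, 0.0465 with the block, 0.0465 to 0.693 over the alternatives). *RGCC*, a regulator of cell cycle kinases, had the largest positive value of the genes that passed with the block, 3.64. Its signals in SW13+BRG1, 0.526 to 6.51, were below the array medians, and a second probe set was at -1.74, so the size of its interaction rests on low signals in that line.

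*HEXIM1* holds the elongation factor P-TEFb in an inactive complex. Its signals rose in SW13+vector from 601, 585 and 553 to 1345, 1224 and 1229.5. In SW13+BRG1 they were 798, 853 and 632 in mock-treated and 928, 838 and 853 in UV-treated cells. The 6 arrays of SW13+vector did not overlap between mock and UV, and those of SW13+BRG1 did. The interaction was -0.92 (adjusted p = 0.0846, 0.00352 with the block, 0.0013 to 1 over the alternatives). Of 3 probe sets the other 2 were dimmer, at -1.05 and 1.37, and the mean over all 3 was -0.20. *TOB1*, an antiproliferative recruiter of deadenylases, rose in both lines, from 255 ± 63.2 to 939.6 ± 176 and from 428 ± 108 to 940.3 ± 192. It reached nearly the same mean from different starts, with an interaction of -0.75 (adjusted p = 0.877, 0.0152 with the block, 0.0152 to 1 over the alternatives).

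*PNRC2*, a decapping cofactor related to *PNRC1*, had means of 1698 ± 341 and 1273 ± 139.8 in SW13+vector and fell from 1523 ± 238 to 579 ± 101 in SW13+BRG1 (interaction -0.99, adjusted p = 0.351, 0.00147 with the block, 0.000966 to 0.826 over the alternatives). *CDKN1B*, the kinase inhibitor p27, had 583 ± 156 and 632 ± 115 in SW13+vector and fell from 1104 ± 175 to 529.6 ± 73.3 in SW13+BRG1 (interaction -1.20, adjusted p = 0.351, 0.00104 with the block, 0.000887 to 0.891 over the alternatives). *CDKN2B*, the inhibitor p15, rose from 50.2 ± 13.9 to 129.6 ± 6.77 in SW13+vector and had 1214 ± 262 and 1403 ± 425 in SW13+BRG1 (interaction -1.22, adjusted p = 0.518, 0.029 with the block, 0.0205 to 1 over the alternatives). The 2 inhibitors thus had a negative interaction of like size from opposite events, a fall in SW13+BRG1 alone and a rise in SW13+vector alone. *CITED2*, a cofactor that competes for p300, fell from 1216 ± 43.6 to 499 ± 40.2 in SW13+BRG1 and had 947 ± 24.9 and 681 ± 32.7 in SW13+vector (interaction -0.81, adjusted p = 0.0591, 0.00268 with the block, 0.00257 to 0.414 over the alternatives). *EMP1*, a membrane protein of epithelial cells, fell from 864 ± 80.4 to 412 ± 102 in SW13+BRG1 and had 1614 ± 355 and 1758 ± 359 in SW13+vector (interaction -1.23, adjusted p = 0.349, 0.000799 with the block, 0.000735 to 0.927 over the alternatives).

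**Figure D3:**
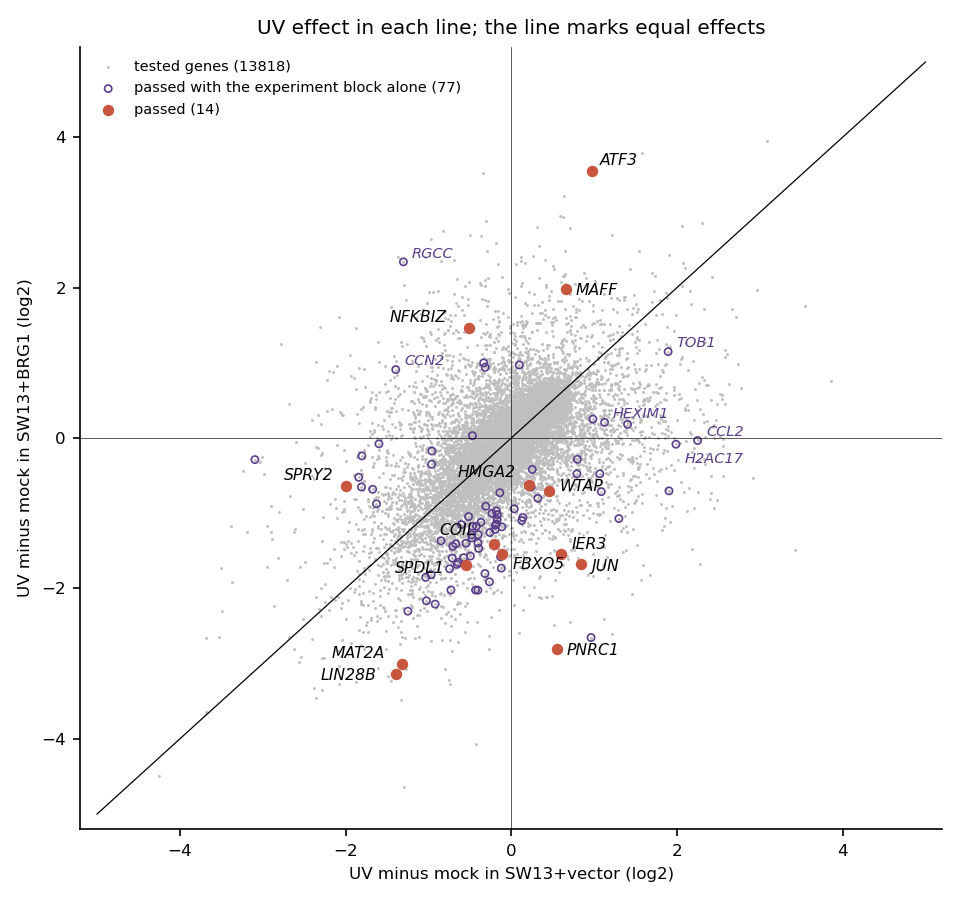
UV minus mock (log2) in SW13+vector against SW13+BRG1 for the 13818 tested genes (grey), the 14 that passed (red) and the 77 that passed with the experiment block alone (purple). The line marks equal effects. *ATF3*, *NFKBIZ* and *MAFF* lie above it, *JUN*, *IER3* and *PNRC1* where the first effect is positive and the second negative, and most purple points below it, among genes that went down in both lines.

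UV effects had opposite signs in 6 of the 14 genes, against 25.5% of all tested genes. In 5 of the 6 the effect was positive in SW13+vector and negative in SW13+BRG1, as in 1742 of the 13818 tested genes. Signs were opposite in 26 of the 91, and in 58 of the 91 both effects were negative, as in 4854 of the 13818 tested genes. The gap between the lines was smaller after UV than before in 7 of the 14, against 44.9% of all tested genes. These patterns are built from the same 4 means as the interaction and were not tested.

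Taken line by line, more genes were called after UV in SW13+BRG1. In SW13+vector 92 genes rose (0.666% of those tested) and 576 fell (4.17%), and in SW13+BRG1 87 rose (0.63%) and 905 fell (6.55%). The falls numbered 410 and 619 after quantile normalization, 582 and 796 with a common median, and 1093 and 1911 with scaling to hybridization controls, more in SW13+BRG1 each time. The rises did not keep their order under these scalings, at 108 and 142, 74 and 89, and 44 and 33. Of the falls 372 were called in both lines, 533 in SW13+BRG1 alone and 204 in SW13+vector alone. The 533 had a median UV difference of -0.70 in SW13+vector and -1.32 in SW13+BRG1, and 509 of them were below 0 in SW13+vector as well. The interaction passed in 6 of the 533 (1.13%, against 0.101% of all genes), and in 46 with the block (against 0.659%), and 218 (40.9%, against 5.7%) had an unadjusted p under 0.05. These genes were picked by a contrast that is part of the interaction, so the shares are a description. Of the 204 it passed in 1 (0.49%), and in 9 with the block, and 57 (27.9%) had an unadjusted p under 0.05. Among the rises 24 were called in both lines, 63 in SW13+BRG1 alone and 68 in SW13+vector alone. Of the 63, 3 passed the interaction (4.76%), 4 with the block, and 30 (47.6%) had an unadjusted p under 0.05. Of the 68, 0 passed in limma, 8 with the block, and 35 (51.5%) had an unadjusted p under 0.05. These sets too were picked by a contrast that is part of the interaction. No gene was called in opposite directions in the lines. Over all genes the 95th percentile of the UV effect was 1.34 in SW13+vector and 1.21 in SW13+BRG1 as the mean of the experiments (two-sided exact permutation p = 0.1, the smallest that 3 against 3 allows, and 0.3 adjusted over 6 such quantities), and the 5th was -1.51 and -1.64 (exact permutation p = 0.4, adjusted 0.6).

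The genes were also grouped by pathway, and the lists are described by counts beside the 0.101% of all genes that passed and the median interaction over all genes, 0.01. With the block 0.659% of all genes passed. Of 27 tested immediate early and AP-1 genes 4 passed, *ATF3* and *MAFF* positive and *JUN* and *IER3* negative, and 8 passed with the block, 4 in each direction. Their median was 0.05 (-0.08 with scaling to hybridization controls), while the median size without sign was 0.74 against 0.25 for all genes. This list, like the others, was chosen with earlier results of these data known, so its spread is a description. Of 18 tested UV-inducible genes that the study's table names, 3 passed, all positive (*ATF3*, *MAFF* and *NFKBIZ*), and the median was 0.49 with 6 members negative. The study chose that list on these samples, and it is not independent evidence of its direction. Genes were scored here by their brightest probe sets, which need not be those the study listed. Among 16 regulators of mRNA decay 1 passed (*PNRC1*), 2 with the block (*TOB1* as well), and 13 were negative, with a median of -0.29. Of 15 ERK feedback genes 1 passed (*SPRY2*, positive) and 8 were negative. Of 19 NF-κB pathway genes 1 passed (*NFKBIZ*, positive) and 2 with the block (*CCL2* as well, negative at -2.28). Of these 19, 12 were negative (9 with a common median), and their median was -0.04. Of 14 polyamine and methionine genes 1 passed with and without the block (*MAT2A*).

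In the other lists no member passed in limma. Over all tested genes 5.7% had an unadjusted p under 0.05, beside which the shares below stand, and 0.659% passed with the block. Among 7 inhibitors of cyclin-dependent kinases 0 passed and 2 (28.6%) had an unadjusted p under 0.05. These 2 passed with the block (*CDKN1B* and *CDKN2B*), and 5 of the 7 were negative, with a median of -0.36. Of 24 G1/S and replication genes 0 passed with or without the block, 2 (8.33%) had an unadjusted p under 0.05, and 19 were negative (15 after quantile normalization). Of 19 interferon-stimulated genes 0 passed in either fit, 1 (5.26%) had an unadjusted p under 0.05, and 14 were negative. Their median was -0.43 (-0.20 after quantile normalization) and -0.52, -0.14 and -0.14 by experiment. Of 40 nucleotide excision repair genes 0 passed in either fit, 2 (5.0%) had an unadjusted p under 0.05, and the median was -0.07. Of 26 p53 target genes 0 passed in either fit, 3 (11.5%) had an unadjusted p under 0.05, and the median was -0.07 as well (0.01 after quantile normalization). Of 23 TGF-β and YAP targets 0 passed, 2 with the block (*CCN2* positive and *CCN1* negative), and 7 (30.4%) had an unadjusted p under 0.05. Of 17 MAP kinases and upstream kinases 0 passed, 1 with the block (*MAP3K5*) and 1 (5.88%) at an unadjusted p under 0.05. In 26 SWI/SNF subunits, 25 apoptosis genes and 9 EGF family genes 0 passed in either fit, and 2, 3 and 1 had an unadjusted p under 0.05. In 23 G2/M genes, 25 integrated stress genes, 11 heat shock genes, 16 histone genes and 11 reference genes 0 passed in either fit and 0 had an unadjusted p under 0.05. *GAPDH* had an interaction of 0.10 (95% interval -0.23 to 0.42).

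**Figure D4:**
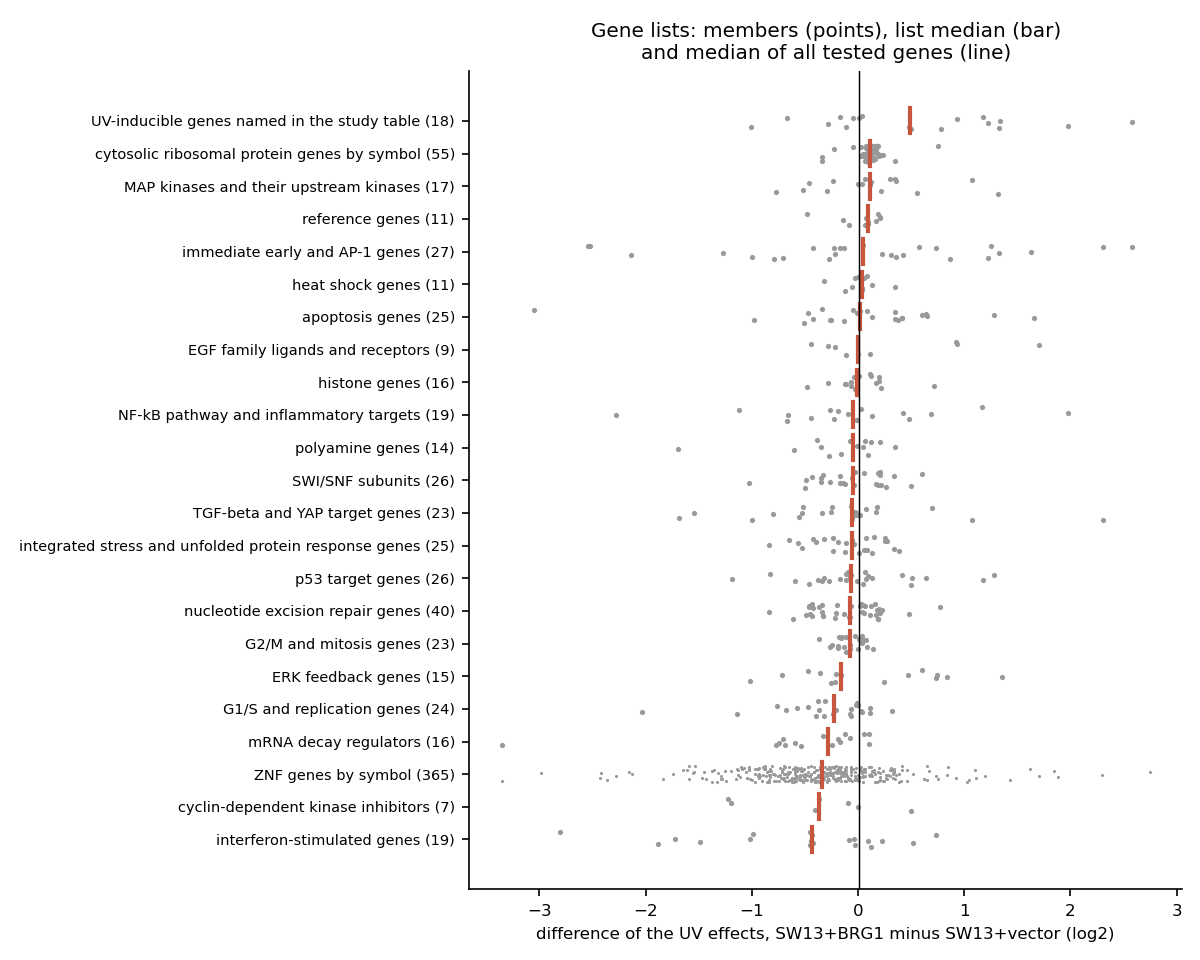
Interaction (log2) of each tested member (points) of 23 gene lists, with the list's median (bar), the number tested in brackets and the median over all tested genes (line). The immediate early genes spread from -2.54 to 2.58 around a median of 0.05, and ZNF genes are mostly to the left of the line.

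Genes whose symbol starts with ZNF, mostly zinc finger transcription factors, were counted after their values were seen. Of 365 tested 280 had a negative interaction (76.7%, against 49.4% of all tested genes), and the median was -0.34. The count was 271 after quantile normalization, 265 with a common median and 303 with scaling to hybridization controls. In limma 0 passed, and 57 (15.6%, against 5.7% of all tested genes) had an unadjusted p under 0.05, 56 of them negative. With the block 8 passed (0.659% of all genes did), all negative. The median UV difference of these genes was -0.34, -0.29 and -0.42 in experiments 1, 2 and 3 of SW13+vector and -0.66, -0.68 and -0.79 in SW13+BRG1, without overlap between the lines. After UV 28 ZNF genes fell in SW13+vector and 98 in SW13+BRG1, where 4.17% and 6.55% of all tested genes fell. *ZNF43* had means of 355 ± 142 and 310.0 ± 61.8 in SW13+vector and fell from 333 ± 83.5 to 98.7 ± 13.4 in SW13+BRG1, with an interaction of -1.61 (adjusted p = 0.399, 0.00457 with the block, 0.000887 to 1 over the alternatives). *ZNF92* had 346 ± 61.4 and 262 ± 80.9 in SW13+vector and fell from 443 ± 142 to 116 ± 56.4 in SW13+BRG1, with an interaction of -1.59 (adjusted p = 0.613, 0.013 with the block, 0.00638 to 1 over the alternatives). Their paralogs are alike in sequence, so a ZNF probe set may also read related genes. Of 55 cytosolic ribosomal protein genes, also counted after their values were seen, 0 passed in either fit, 1 had an unadjusted p under 0.05, and 4 were negative, a count that became 31 after quantile normalization and 33 with hybridization controls.

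A longer gene offers more sites for damage that stalls RNA polymerase, and gene length was set beside the UV effects. In both lines the median UV difference went down with length. It was 0.27 in SW13+vector and 0.29 in SW13+BRG1 for the 3276 genes under 10 kb, and -0.27 and -0.21 for the 2412 genes over 100 kb. The drop from the shortest to the longest genes was -0.56 ± 0.05 (SD, n = 3 experiments) in SW13+vector and -0.53 ± 0.03 in SW13+BRG1, a difference of 0.03 (two-sided exact permutation p = 0.5, smallest possible 0.1). The falls called in limma were apportioned otherwise. Among genes over 100 kb 11.9% fell in SW13+vector and 11.5% in SW13+BRG1, among genes of 30 to 100 kb 5.01% and 8.73%, among genes of 10 to 30 kb 1.14% and 4.82%, and among genes under 10 kb 1.04% and 2.17%. The share of genes of 10 to 30 kb that went down over 2-fold was 5.87%, 5.89% and 7.82% in the experiments of SW13+vector and 8.63%, 9.04% and 11.96% in those of SW13+BRG1. The difference of 3.35 percentage points had an exact permutation p of 0.1, the smallest possible, and 0.4 adjusted over 4 length bins. It was 1.98 points after quantile normalization, 2.30 with a common median and 6.82 with hybridization controls (exact permutation p = 0.1 in each). Without ZNF genes, 191 of which fall in this bin, the difference was 2.24 points (exact permutation p = 0.2). The 14 genes that passed had a median length of 17.8 kb, the 72 negative genes of the blocked test 21.1 kb, the 19 positive ones 55.4 kb and all tested genes 28.1 kb.

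**Figure D5:**
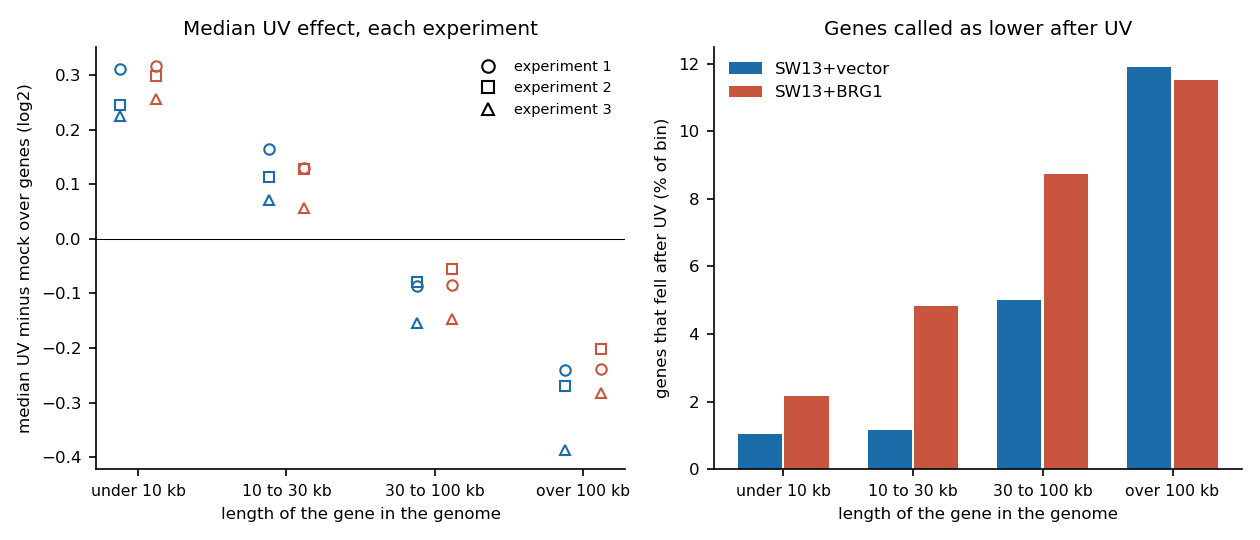
Left, median UV difference (log2) over genes in 4 bins of length in the genome, 1 symbol for each experiment of SW13+vector (blue) and SW13+BRG1 (red). Right, percent of the genes in a bin called as lower after UV in each line. The symbols of the lines run together from about 0.3 to -0.3, and the red bar stands above the blue one in the 3 shorter bins, by 4.82% against 1.14% at 10 to 30 kb and 8.73% against 5.01% at 30 to 100 kb.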

How the data were processed

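RNA of 12 samples was hybridized to Affymetrix U133 Plus 2.0 arrays. The authors summarized probe sets with MAS and scaled each array to a mean of 125, and the deposited values are linear signal intensities of 54675 probe sets. The mean without the highest and lowest 2% was 125.0 on each array. The authors listed genes by a Welch test and a fold of 2. The release of MAS was not given in the sources used here.

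Intensities were taken to log2 without further normalization. Probe sets at or above the array median on at least 3 of 12 arrays were kept (32622). Of all probe sets 41097 have 1 gene in the array annotation, 1801 several and 11777 none, and symbols were updated by gene identifier. Each gene was represented by its brightest probe set among those with a single gene (13818 genes). limma 3.58.1 (R 4.3.3) was fitted with 1 mean per group, a variance prior with trend and Benjamini-Hochberg adjustment over all genes. The interaction was called at an adjusted p under 0.05, and UV and line differences also needed a fold over 2, which is what rose, fell and higher or lower between lines mean in the text. Of the 9 *SMARCA4* probe sets 7 were kept, and their values come from the fit over the 32622 kept probe sets. The others were given no p value. The code was tested on simulated data.

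The labels number an experiment, 1 to 3, in each group. Deviations from the group means correlated at 0.0554 to 0.275 between arrays of the same number in different groups, positive in 18 of 18 pairs, and at -0.204 to 0.116 between arrays of different numbers. Numbers 1 and 2 correlated with each other as well (0.0506 to 0.116). Whether a number is shared across groups is not stated, so the experiment is kept as a second fit with the replicate block.

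Named were genes that passed and the 15 of each sign with the smallest p among brightly expressed genes. The 12 of each sign in the blocked fit and up to 3 of each list were named as well. Other genes, among them *TOB1*, *ZNF43* and *ZNF92*, met none of these rules and were added after their values were seen. Of the named genes those with a known role are described. The 26 gene lists, the members and the rule were chosen with earlier results of these data known. Alternatives were other filters, scalings, an offset of 16, a floor at the 40th percentile, blocks, a prior without trend, the methods' t-test, means over probe sets and leaving out arrays. Promoters are RefSeq windows of 250 bases before the start. The number of arrays limits the precision.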

Additional observations from a re-analysis of the deposited data

Results flagged for a closer look

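The interaction tests the difference of 2 contrasts itself, and 14 genes passed it in the fit without a block. With BRG1 the effect was more positive for *ATF3* (2.58), *NFKBIZ* (1.97), *SPRY2* (1.36) and *MAFF* (1.32). It was more negative for *PNRC1* (-3.35), *JUN* (-2.52), *IER3* (-2.14), *LIN28B* (-1.74), *MAT2A* (-1.69), *FBXO5* (-1.44), *COIL* (-1.20), *WTAP* (-1.16), *SPDL1* (-1.14) and *HMGA2* (-0.83), all on the log2 scale with 3 arrays per group. No test for single outlying arrays was run in groups of 3, though each array was left out in turn.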

How the results depend on the processing

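No interaction of the 14 genes changed sign under any alternative. The count of 14 genes was 9 without the filter on low signals, 26 with a floor at the 40th percentile, 91 with the replicate block, 104 with the block within each line, 5 with a prior without trend, 6 with means over probe sets and 155 without experiment 3, which was chosen after seeing the data. The methods' t-test gave 0 genes after Benjamini-Hochberg, 643 at an unadjusted p under 0.05 and 236 of these over 2-fold. Leaving out 1 array gave 5 to 20 genes. Other filters, offsets and scalings gave 10 to 20. The 69 probe sets with the replicate block compare with 16 without it. Means over probe sets lost *JUN*, *NFKBIZ*, *COIL*, *HMGA2*, *MAT2A*, *ATF3*, *MAFF* and *WTAP*. Scaling to hybridization controls moved the median interaction from 0.01 to -0.125 on the log2 scale, and the genes called after UV from 668 to 1137 in SW13+vector and from 992 to 1944 in SW13+BRG1. The methods' t-test called 31 and 158. Leaving out 1 array gave 595 to 686 and 808 to 1020. Between the lines 2023 genes were called in mock-treated cells (1102 with the strict filter, 670 by the methods' t-test) and 2315 after UV (1351 and 948). The difference of the length effect, 0.03, was 0.01 to 0.07. The cause of these shifts was not tested.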
